A study of Mus musculus with 4 samples.

Results

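The 8 genes described here encode the enzymes that write and remove DNA methylation and their closest helpers: Dnmt1 and Uhrf1, which maintain methylation, Dnmt3a, Dnmt3b and Dnmt3l, which set it up, and Tet1, Tet2 and Tet3, which start its removal. They were taken by symbol from the array design, which gave 8 of 31829 symbols and 16 of 39429 array sequences. Transcripts were measured in skin epithelial cells of adult C3H/HeN mice that had been sorted for CD49f (integrin alpha 6) and CD34, a pair of surface proteins used to isolate bulge stem cells of the hair follicle. The group called 0p was the sorted primary population, and 15p was the population sorted again after the 15th of successive cultures of 10 days with the growth factor Wnt-3a on collagen. Both RNAs carry the treatment label Wnt-3a, and the labels leave unclear whether the 0p cells were exposed to it. The labels name no engineered allele and do not say how many mice were pooled or whether the replicates came from separate mice. RNA of 15p and 0p cells was hybridised together on each of 4 two-colour Agilent arrays, as 2 biological replicates with 1 pair of dye-swapped arrays each (n = 2 throughout). An array is named below by its replicate and by the dye of its 15p RNA, as the Cy5 or the Cy3 array. The comparison asks by how much the transcripts of these genes changed over serial culture.

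In mammals DNA is methylated mainly at cytosines followed by guanine. Dnmt1 copies the pattern onto the new strand after replication and is brought to half-methylated sites by Uhrf1, so both act where DNA is replicated. Dnmt3a and Dnmt3b methylate sites that were bare, Dnmt3l has no catalytic activity of its own and assists them in germ cells, and the Tet proteins oxidise methylcytosine, after which the base can be lost through replication or excised. In epidermis Dnmt1 and Uhrf1 are known for keeping progenitor cells proliferating and undifferentiated, and Dnmt3a and Dnmt3b for acting at enhancers of epidermal stem cells.

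Each array sequence is a DNA strand of 60 bases, and a transcript is seen only where it covers that stretch. The Dnmt1 sequence and 1 of the 2 Uhrf1 sequences each cover more genomic bases than their own length, 369 and 654 bases in mouse build mm9, so both cross an exon junction and can match spliced transcripts in full. The Dnmt1 sequence lies at chr9:20711973-20712341 on the minus strand and the Uhrf1 junction sequence at chr17:56451668-56452321 on the plus strand. They are shown with the 3 Tet3 sequences, at chr6:83318731-83318790, chr6:83352743-83352802 and chr6:83319720-83319779 on the minus strand, because these 3 read different stretches of one transcript and their ratios differed in sign. All are written 5′ to 3′ in the sense of the transcript.
Dnmt1: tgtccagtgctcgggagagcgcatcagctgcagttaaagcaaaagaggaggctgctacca
Uhrf1 junction: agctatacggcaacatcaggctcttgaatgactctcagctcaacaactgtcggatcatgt
Tet3 at chr6:83318731-83318790: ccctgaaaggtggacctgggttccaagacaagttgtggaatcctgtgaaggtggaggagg
Tet3 at chr6:83352743-83352802: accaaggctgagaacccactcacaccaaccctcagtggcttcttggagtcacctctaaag
Tet3 at chr6:83319720-83319779: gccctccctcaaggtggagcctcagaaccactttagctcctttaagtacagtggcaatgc

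All 8 genes were detected. A sequence was kept where the scanner software called it well above background on all 4 arrays in 15p RNA or on all 4 in 0p RNA, which held for 14 of the 16 sequences and for 54.9% of all sequences on the array. The kept sequences passed in both RNAs, so no gene was seen in 15p and missed in 0p or the reverse. The 2 sequences that did not pass both belong to Tet1. One, at chr10:62274448-62274507, was well above background on 0 arrays in 15p and on 1 in 0p, with intensities of 58.0 to 88.5. The other, at chr10:62301856-62301915, passed on 1 array in 15p and on 2 in 0p, with 56.0 to 97.8. The 95th percentile of negative control spots ran from 53.6 to 85.5 over arrays and dyes, so these Tet1 intensities lay in or just above that range. Under a laxer rule, positive and significant over local background, all 3 Tet1 sequences passed on all 4 arrays.

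**Figure D1:**
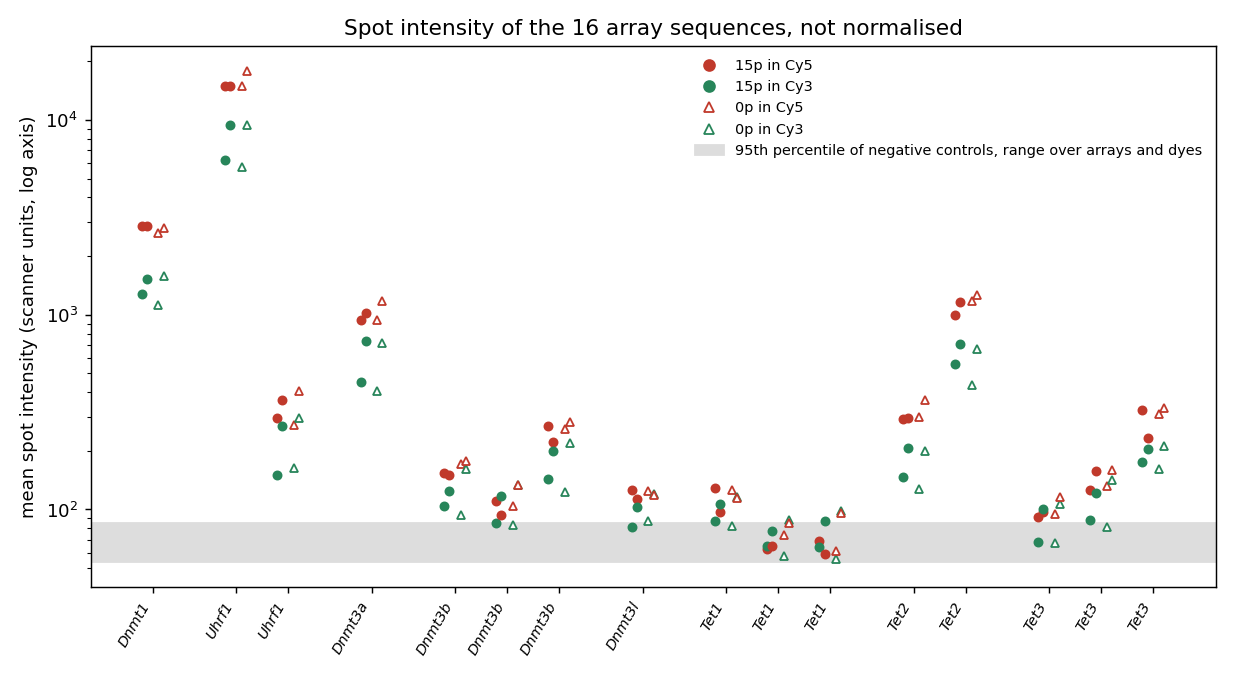
Mean spot intensity in scanner units (log axis) for the 16 array sequences of the 8 genes, not normalised. Circles are 15p and triangles 0p RNA, red is Cy5 and green Cy3, 4 arrays each; the grey band is the range of the 95th percentile of negative controls, 53.6 to 85.5. Before normalisation Cy5 is brighter than Cy3 on all 4 arrays for 9 of the 16 sequences, and no such count over all sequences is given here. Of the 3 Tet1 sequences 2 lie around the band. Heights of different sequences cannot be compared as transcript levels.

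Over the whole series, 55.5% to 68.3% of spots were well above background per array and RNA, and no spot was saturated. The ratio of 15p over 0p had a standard deviation over genes of 0.29 on the Cy5 array of replicate 2 and of 0.13 to 0.14 on the other 3, and on the former the negative controls of the 0p channel had a median of 75.2 against 47.5 to 62.9 in all other channels. Across genes the 2 arrays of a dye-swapped pair gave opposed ratios (r = -0.55 in replicate 1 and -0.40 in replicate 2), whereas arrays of one dye orientation gave like ones (r = 0.27 and 0.41); these are correlations over genes, which are not independent. The directions below come from the dyes named in the labels, and whether they hold for every array was not tested; on an array with the dyes the other way round each ratio would change sign. The genes' ratios are therefore also given unturned, as Cy5 over Cy3. The keratinocyte markers were detected (8 of 8 tested, summed intensity 179922 to 579323 in 15p and 164276 to 577472 in 0p). Of 8 bulge markers 4 passed the filter, Krt15 (0.17 ± 0.033), Sox9 (-0.38 ± 0.60), Nfatc1 and Tcf7l2, none of them called. Krt15 was positive on the Cy5 arrays (0.31 and 0.48) and negative on the Cy3 arrays (-0.012 and -0.093). Sox9 stood at -1.56 on the Cy5 array of replicate 2 and between -0.059 and 0.14 on the other 3. Of the other bulge markers Cd34 was well above background on 0 arrays in 15p and 1 in 0p, and Lgr5 and Lhx2 on none. Of markers of other cells, 2 of 8 fibroblast genes (Col3a1, Twist2) and 4 of 8 leukocyte genes (Cd3e, Itgam, Cd74, Fcer1g) passed the filter. So did 4 of 8 endothelial genes (Pecam1, Kdr, Flt1, Eng) and 4 of 8 melanocyte genes (Mlana, Sox10, Mitf, Tyr). Among those above background on no array were Pdgfra, Dcn, Lum, Lyz2, Cdh5, Tyrp1 and Kit. In bulk RNA, fewer cells of a type and less RNA per cell cannot be told apart.

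None of the 8 genes passed the test across all genes for a difference between 15p and 0p cells. Ratios are given on the log2 scale after normalisation, from the brightest kept sequence of a gene, and were tested with limma, a linear model that shares information on the spread among genes. Of 17363 genes tested, 0 were called higher in 15p and 0 lower (0% each; limma, Benjamini-Hochberg adjusted p under 0.05), and 1093 (6.29%) had an unadjusted p under 0.05, among them 1 of the 8, Dnmt1. In a fit of single arrays with terms for dye and replicate block, 7 genes were called higher and 53 lower, none of them among the 8; that fit takes its spread from the dye contrast and gives all genes a common spread, so it leaves out the spread between replicates. The mean log2 ratio was positive for 5 genes and negative for 3, where 48.6% of all genes were negative, and the median of the 8 was 0.048 beside 0.0025 for all genes. All 8 had a 95% interval inside a 1.5-fold difference, as did 99.7% of genes. These intervals rest on 2 replicate means whose spread is moderated over all genes, and arrays of the same pair can differ by more.

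**Figure D2:**
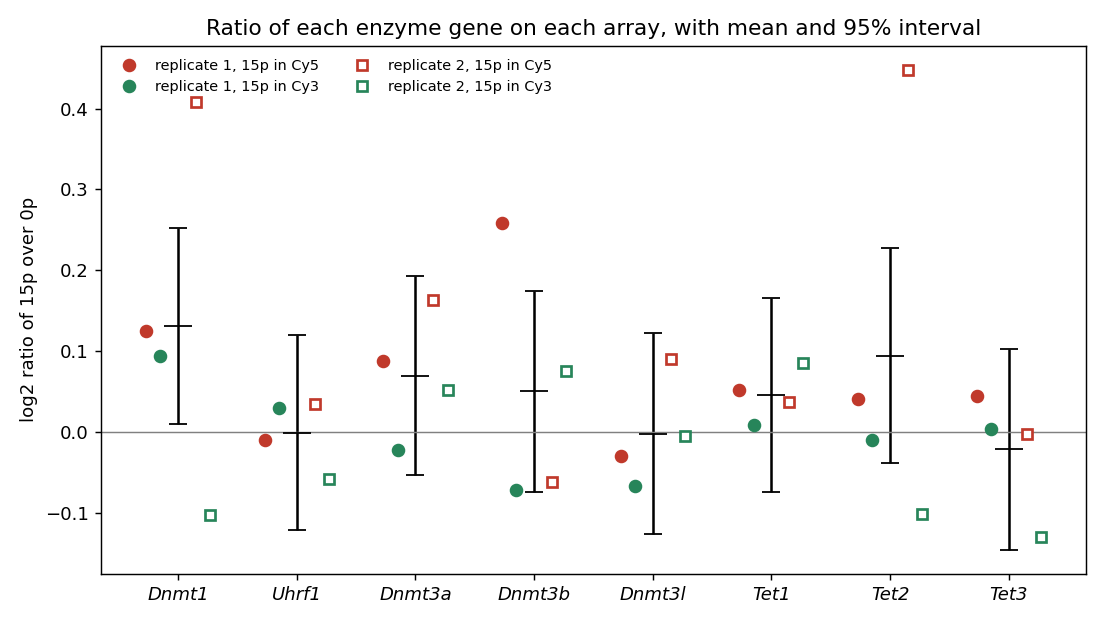
Log2 ratio of 15p over 0p for the sequence that stands for each of the 8 genes. Points are single arrays (filled circles replicate 1, open squares replicate 2, red with 15p in Cy5, green with 15p in Cy3), and black bars are the mean of 2 replicates with limma's 95% interval. The Cy5 array of replicate 2 stands highest for Dnmt1 (0.41) and Tet2 (0.45), and only Tet1 has all 4 points above 0.

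Among the maintenance genes Dnmt1 had the highest ratio of the 8, and Uhrf1 one near 0. The Dnmt1 intensity in 15p RNA was 2862 and 1282 in replicate 1 (Cy5, then Cy3) and 2856 and 1527 in replicate 2, and in 0p RNA of the same arrays it was 1120, 2632, 1575 and 2805. Whichever RNA carried Cy5 was the brighter on every array, and 15p and 0p values overlapped. After normalisation the log2 ratios were 0.12 and 0.094 in replicate 1 and 0.41 and -0.10 in replicate 2, positive on 3 of 4 arrays. The mean was 0.13 ± 0.030 (SD, n = 2), or 1.10-fold, with a 95% interval of 0.010 to 0.25 and an adjusted p of 0.750 (limma; unadjusted p = 0.0365). Its absolute size was above that of 92.7% of genes tested. Without the Cy5 array of replicate 2 the ratio was 0.060. Without the Cy5 array of replicate 1 it was 0.20 and passed the test (adjusted p = 0.0141, limma with a dye term and 1 common spread for all genes), in a fit that called 1535 genes higher and 1583 lower.

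Uhrf1 was represented by its sequence at chr17:56462770-56462829. The intensity there was 14910, 6243, 14903 and 9409 in 15p RNA and 5738, 14962, 9473 and 17946 in 0p RNA, in the array order used for Dnmt1. As for Dnmt1, the Cy5 value exceeded the Cy3 value on each array. The log2 ratios were -0.0095, 0.029, 0.035 and -0.058, a range of 0.093 over the 4 arrays, and the mean was -0.00065 ± 0.015 (95% interval -0.12 to 0.12; adjusted p = 0.998, limma). The junction sequence printed above, with intensities of 151 to 408, gave a mean of -0.0047 ± 0.091. So the 2 Uhrf1 sequences, which lie apart in the gene, differed by 0.0040 in their mean ratio.

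Of the de novo methyltransferases, Dnmt3a had a positive ratio on 3 of 4 arrays and Dnmt3b had sequences of both signs. Dnmt3a, read at chr12:3914320-3914379, had intensities of 943, 451, 1020 and 735 in 15p and 407, 938, 712 and 1178 in 0p RNA. Its log2 ratios were 0.088, -0.023, 0.16 and 0.051. The mean was 0.070 ± 0.053, or 1.05-fold, with an interval of -0.053 to 0.19 and an adjusted p of 0.822 (limma). Its mean stayed positive under all 17 other settings tried, between 0.032 and 0.11, though some of these could not change it.

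Dnmt3b was read by 3 sequences within 1 stretch of chromosome 2, at 153512098-153512157, 153512991-153513050 and 153513403-153513462. The last and brightest, at 124 to 282, stood for the gene and had log2 ratios of 0.26, -0.072, -0.062 and 0.076, with a mean of 0.050 ± 0.061 (interval -0.074 to 0.17; adjusted p = 0.857, limma). The other Dnmt3b sequences were dimmer, at 93.7 to 177 and 83.7 to 134, and had means of -0.023 ± 0.020 and -0.050 ± 0.077. The 3 thus spanned 0.10, and the mean over all 3 was -0.0076. No direction can be given for Dnmt3b from these sequences. Dnmt3l, the germ cell cofactor, was read at chr10:77526112-77526171 close to background, at 81.5 to 126, and was still called well above background on all 4 arrays in both RNAs. Its log2 ratios of -0.029, -0.066, 0.091 and -0.0048 gave a mean of -0.0024 ± 0.064 (interval -0.13 to 0.12; adjusted p = 0.992, limma), with the 2 replicates of opposite sign.

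Among the Tet genes, the 1 kept Tet1 sequence had the same sign on every array and Tet2 was highest on 1 array by a wide gap. Tet3 differed in sign between its kept sequences. Tet1, at chr10:62276042-62276101, had intensities of 128, 86.9, 97.0 and 106 in 15p and 82.0, 126, 116 and 115 in 0p RNA. Its log2 ratios were 0.052, 0.0087, 0.037 and 0.085. It was the only 1 of the 8 genes positive on all 4 arrays, as were 3.67% of all genes, while 0 of the 8 and 3.12% of all genes were negative on all 4. The mean was 0.046 ± 0.022 (interval -0.075 to 0.17; adjusted p = 0.865, limma). From the software's own processed intensities it was 0.12, and in the authors' deposited ratios it was 0.16, and neither passed the test. The 2 Tet1 sequences that failed the filter did not keep 1 sign. The one at chr10:62274448-62274507 had -0.011, 0.043, 0.30 and -0.038 (mean 0.074). The one at chr10:62301856-62301915 had 0.094, 0.092, -0.10 and -0.15 (mean -0.018).

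Tet2 was read by 2 neighbouring sequences, at chr3:133126751-133126810 and chr3:133126905-133126964. The first had intensities of 999, 559, 1164 and 708 in 15p and 437, 1173, 664 and 1269 in 0p RNA, higher in Cy5 on each array. Its log2 ratios were 0.041 and -0.010 in replicate 1 and 0.45 and -0.10 in replicate 2, and the second sequence gave 0.29, -0.18, 0.45 and -0.22. Both sequences were thus positive with 15p in Cy5 and negative with 15p in Cy3, in each replicate, and both were highest on the same array. The mean of the first was 0.095 ± 0.11, or 1.07-fold (interval -0.038 to 0.23; adjusted p = 0.777, limma), and that of the second 0.082 ± 0.041. Without the Cy5 array of replicate 2 the Tet2 ratio was -0.0071, and without the Cy5 array of replicate 1 it was 0.20 with an adjusted p of 0.0176 (limma, dye term and common spread), so its call and its sign depended on which array was left out.

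Tet3 was read by the 3 sequences printed above. The one with the highest intensity, at chr6:83319720-83319779 with 162 to 333, stood for the gene, with log2 ratios of 0.044, 0.0033, -0.0028 and -0.13 and a mean of -0.021 ± 0.064 (interval -0.15 to 0.10; adjusted p = 0.946, limma). The sequences at chr6:83318731-83318790 and chr6:83352743-83352802 had means of 0.012 ± 0.10 and 0.050 ± 0.095. On the Cy5 array of replicate 2 they stood at 0.20 and 0.23, and on the other 3 arrays between -0.068 and 0.010, while the first stood at -0.0028 on that array. The mean over the 3 was 0.014, opposite in sign to that of the sequence that stood for the gene.

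For 4 of the 8 genes the largest absolute ratio of the 4 lay on the Cy5 array of replicate 2, as for 56.8% of all genes, and 5 of 8 had the same sign in both replicates (57% of all genes). The scanner software attaches to each spot a p-value for a ratio other than 0, from a model of that spot's error. Of the 16 sequences, 2 had such a p under 0.01 on this array, 1 of Tet2 (0.00745) and 1 of Tet3 (0.00496), where 7.22% of all spots had one. On the other arrays 0 of 16 did, beside 0.615% and 0.285% of spots in replicate 1 (Cy5, then Cy3 array) and 1.6% on the other array of replicate 2. These p-values compare single spots of 1 array and carry no replicate spread.

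Read as Cy5 over Cy3, without regard to the RNA, the same genes led. The mean was 0.15 for Tet2 and 0.14 for Dnmt1, 0.055 for Dnmt3a, 0.048 for Dnmt3b, 0.042 for Tet3, 0.033 for Dnmt3l, 0.013 for Uhrf1 and -0.0012 for Tet1. Thus 7 of the 8 were positive (median 0.045), beside 9069 of 17363 genes (median 0.0066). For Dnmt1 this dye ratio was as large as the ratio of 15p over 0p (0.14 and 0.13), and for Tet2 it was larger (0.15 and 0.095). Of all genes, 443 (2.55%) were called higher in Cy5 and 218 (1.26%) higher in Cy3, with 2432 (14%) at an unadjusted p under 0.05. None of the 8 was among these genes (limma, lowest adjusted p = 0.464, Tet2). This dye test gave all genes 1 common spread, so it leaves out each gene's own spread between replicates. In the mean ratio of 15p over 0p, a dye effect of the same size on either array of a pair cancels, and one that differs between them does not. The genes nearest to Dnmt1 over the 4 array ratios, by Euclidean distance, were an expressed sequence tag without a gene name (0.054), 1700003M07Rik (0.055) and Dzip1l (0.056), each with its highest ratio on the same array.

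Genes that work with these enzymes were read from 9 lists with 111 tested members. Of these 111 genes 0 were called in either direction, 9 (8.11%) had an unadjusted p under 0.05, and 47 ratios were positive against 64 negative (median -0.014). Unturned, as Cy5 over Cy3, 47 were positive and 64 negative (median -0.015), beside 9069 of 17363 positive among all genes (median 0.0066). Positive were 6 of 12 de novo methylation partners, 6 of 13 maintenance partners, 3 of 10 Tet partners and 5 of 20 S-phase genes. So were 4 of 13 genes of base excision, 7 of 15 methyl-CpG readers and 7 of 15 genes of the methyl donor cycle. Of the imprinted genes 9 of 11 were positive, and of the germline genes 0 of 2. The lists were chosen with results of these data known, and their counts are descriptions.

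**Figure D3:**
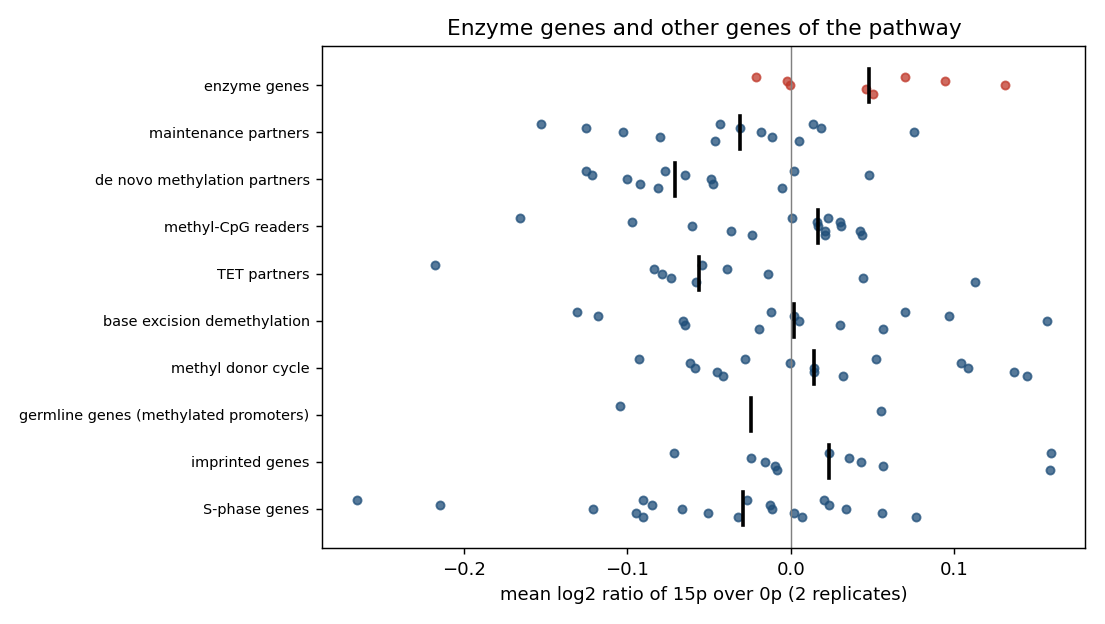
Mean log2 ratio of 15p over 0p (2 replicates) of the 8 enzyme genes (red) and of the tested members of 9 lists of related genes (blue), with the median of each as a black bar. The median of the enzyme genes was 0.048, though by array their median was positive only with 15p in Cy5. Medians of the lists ran from -0.071 for the de novo methylation partners to 0.023 for the imprinted genes. No gene shown passed the test.

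None of the partners of maintenance and of de novo methylation passed the test, and more had negative than positive ratios, where 48.6% of all genes were negative. Of 13 maintenance partners 9 were negative (median -0.031). Pcna, the replication clamp that holds Dnmt1 at the fork, had a ratio of -0.13 ± 0.14, and Usp7, a deubiquitinase that binds Dnmt1 and Uhrf1, -0.080 ± 0.098. Of 12 genes listed as de novo methylation partners, Trdmt1 (a tRNA methyltransferase) included, 10 were negative (median -0.071). The array medians were 0.019, -0.10, -0.17 and -0.044 in the order used above. Nsd1, a histone methyltransferase whose mark guides Dnmt3a, had -0.065 ± 0.051, and its relative Nsd2 0.0019 ± 0.0016. The S-phase genes, which can change with the share of dividing cells, had 13 of 20 negative ratios (median -0.029). Their array medians were -0.057, 0.011, -0.14 and 0.029, negative with 15p in Cy5 and positive with 15p in Cy3. Mcm2 had 0.056 ± 0.043 and Mcm3 -0.027 ± 0.0078, both subunits of the replicative helicase. The lowest of the 20 genes was Mki67, a proliferation marker named here after its value was seen, at -0.27 ± 0.20 (adjusted p = 0.750, limma). Its array ratios were -0.25, 0.0079, -0.81 and -0.0077, so it was low with 15p in Cy5 and near 0 with 15p in Cy3. Read as Cy5 over Cy3, its mean was also -0.27.

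Of 10 tested partners of the Tet enzymes, 8 were negative (median -0.056) and none passed the test. Ogt, the sugar transferase that binds Tet proteins, had -0.079 ± 0.12, and Idh1, which makes their cosubstrate alpha-ketoglutarate, 0.11 ± 0.074. Cxxc4 and Cxxc5, which encode regulators of Tet2, were well above background on no array. In the base excision list, which completes demethylation, 7 of 13 were positive (median 0.0017). Tdg, the glycosylase that removes oxidised methylcytosine, had 0.16 ± 0.24 with 0.77 on the Cy5 array of replicate 2 and -0.12 to 0.050 on the other 3, and Smug1, another glycosylase, had -0.13 ± 0.16. Lig3, the ligase that seals the repaired strand, named after its value was seen, was positive on all 4 arrays (0.097 ± 0.063, adjusted p = 0.760, limma). Of the 111 list genes 2 were positive on all 4 arrays, beside 3.67% of all genes. On all 4 arrays 1 was negative, beside 3.12% of all genes.

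Methyl-CpG readers and the methyl donor cycle lay around 0. Among the genes listed as readers 10 of 15 were positive (median 0.017), with 0.00079 ± 0.050 for Mbd1, which binds methylated DNA. Not all 15 are readers themselves, since the list also holds Gatad2a, Gatad2b, Mta1, Mta2 and Chd4. In the methyl donor cycle 8 of 15 were positive (median 0.014), with 0.014 ± 0.051 for Mat2a and -0.00045 ± 0.042 for Mat2b, the catalytic and regulatory subunits of the enzyme that makes S-adenosylmethionine.

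Genes whose silence or dosage depends on DNA methylation were read last. Of 17 germline genes with methylated promoters in somatic cells, 9 were above background on no array in either RNA, among them Dazl and Ddx4, 2 passed the filter and 6 passed on only some arrays. The 2 that passed were Sycp1, a protein of the synaptonemal complex (-0.10 ± 0.087), and Taf7l, a germ cell transcription factor subunit (0.055 ± 0.0025). Their single arrays differed by more than these spreads of replicate means. Sycp1 had -0.015, -0.069, -0.64 and 0.30 in the array order used above. Taf7l had -0.0060, 0.11, -0.015 and 0.13, negative with 15p in Cy5 and positive with 15p in Cy3. Each of the other 6 passed on the same number of arrays in 15p as in 0p. Of 23 imprinted genes 11 were tested and 6 of these were positive (median 0.023), with 0.057 ± 0.047 for Igf2, a growth factor, and 0.036 ± 0.070 for Igf2r, its clearing receptor. Phlda2, an imprinted growth regulator named after its value was seen, was positive on all 4 arrays at 0.14, 0.058, 0.39 and 0.047. Its mean was 0.16 ± 0.085, with an adjusted p of 0.750 (limma). With Lig3 it made up the 2 of 111 list genes positive on all 4 arrays, beside 3.67% of all genes.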

How the data were processed

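Per the labels' protocols, 200 ng of RNA was dye-labelled by linear amplification and 825 ng of each labelled product went on an array. The deposited scanner files hold mean spot and local background intensity in each dye, software-processed intensity, the log10 ratio of Cy5 over Cy3 processed intensity and its p-value, all by Agilent Feature Extraction 10.7.3.1 per the submitters' processing notes. Other deposited columns are 0 or 1 flags. The deposited table of values repeats those log10 ratios, unturned, with a largest difference of 0.0045, and served as an alternative.

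With R 4.3.3, limma 3.58.1 and the data.table package (version 1.17.8), mean intensities were corrected by normexp (offset 50) and normalised by loess within arrays, with control spots at weight 0. Spots with irregularity flags (154 to 286 an array, none of the 8 genes) were left out, and sequences not well above background on all 4 arrays in either RNA were dropped, leaving 21663. Symbols came from RefSeq (GRCm38.p6) for 26055 sequences, otherwise from the files; positions are the files' (mm9), and an mm9 annotation was not used here. The brightest sequence stood for a gene. Ratios were turned to 15p over 0p, averaged within each dye-swapped pair, and tested against 0 with eBayes, two-sided, Benjamini-Hochberg adjusted over 17363 genes (prior degrees of freedom 8.84, residual 1). Cy5 over Cy3 was tested likewise, but there the prior degrees of freedom were estimated as infinite, which gave all genes 1 common spread. The number of arrays limits the precision, and p-values measure the spread between these samples only.

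Same-numbered arrays carry the same RNA extracts per the titles; after the mean of each dye orientation was removed, they correlated at -0.26 across genes. Slide and replicate coincide and cannot be told apart. The 8 genes and the lists were chosen with earlier results of these data known. All 8 are named with all their sequences; in each list, called members are named or, where there are none, the first 2 tested, and for the gene with the largest ratio its 3 nearest by pattern. Of the genes this rule takes, 1 is not reported here. Alternatives covered background, normalisation, filter, sequence choice, design and each array left out.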

Additional observations from a re-analysis of the deposited data

How the results depend on the processing

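Under 17 other settings each, the 8 ratios gave 136 values, of which 120 kept their sign and 16 changed it. Settings that changed only the between-array normalisation, the filter, the 4-array design or the eBayes options left every ratio as it was. The mean over a gene's sequences cannot change a gene with 1 kept sequence. The signs kept under these settings are therefore no measure of stability. Of the 120 values with a test 2 newly passed it; the other 16, of 1 replicate alone, have no test. Dnmt1, Dnmt3a and Tet1 kept a positive ratio under all 17 (0.060 to 0.20, 0.032 to 0.11 and 0.027 to 0.16). Uhrf1 turned to 0.0010 with normexp offset 10, 0.044 with median centring and 0.0070 from the deposited ratios. Dnmt3l turned to 0.015 with median centring, and the mean over a gene's sequences turned Dnmt3b to -0.0076 and Tet3 to 0.014. Leaving out 1 array or replicate gave -0.022 to 0.021 for Uhrf1, -0.048 to 0.043 for Dnmt3l, -0.030 to 0.13 for Dnmt3b, -0.0071 to 0.20 for Tet2 and -0.066 to 0.024 for Tet3; the cause was not tested. Leaving out 1 array, genes called higher ranged from 0 to 1535, lower from 0 to 1583, and enzyme genes called from 0 to 2 (Dnmt1 and Tet2, without the Cy5 array of replicate 1). The larger counts, without either Cy5 array (42 and 46 without that of replicate 2), came from fits with 1 common spread for all genes, in which the array alone in its orientation adds nothing to the spread. The fit with a replicate block called 7 genes higher and 53 lower and no enzyme gene, and the fit without a filter called 1 lower. Genes called by dye, 661 here, were 10081 with median centring (4 of the 8 enzyme genes), 284 from the deposited ratios, 1435 without a filter, 80 with a dye term and no block, and 0 to 5566 without 1 array (0 to 2 enzyme genes). Dim spots limit Tet1, Dnmt3l, the Tet3 sequences at 67.5 to 116 and 81.6 to 159, and the Dnmt3b sequences at 83.7 to 134 and 93.7 to 177. Their lowest intensities were near those of negative controls.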
